A study of Mus musculus with 15 samples.

Results

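Genes of the hair germ and of the embryonic hair placode were followed in tumour cells sorted from a mouse model of basal cell carcinoma, the skin cancer in which Hedgehog signalling is switched on. The 9 genes are Shh, Pthlh, Sostdc1, Cdh3, Msx1, Msx2, Sox4, Foxe1 and Foxi3. They were taken by name from the 36528 genes listed, after Entrez identifiers had been matched to mouse symbols. The list was chosen with earlier results of these data known. PolyA RNA of sorted tumour cells was sequenced in 3 libraries at 14 days of vismodegib, 8 libraries at 6 days of vismodegib and 4 libraries labelled control, which the design text of the series describes as untreated mice. Vismodegib inhibits SMO, the membrane protein that passes on the Hedgehog signal. Every group, controls included, carried K14Cre-ER, a tamoxifen-inducible recombinase driven by the keratin promoter of basal keratinocytes, with Ptch1fl/fl and p53fl/fl, the floxed alleles of the Hedgehog receptor and of the tumour suppressor, and with Lgr5GFP, a stem cell reporter. The labels do not give age, dose, the gate of the sort, or whether each library came from its own mouse, so p-values here measure the spread between libraries.

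A hair placode is a local thickening of the epidermis from which a follicle grows, and the hair germ is the small epithelial bud below the bulge from which the follicle regrows in each cycle. Wnt and ectodysplasin signals set up the placode, BMP signals restrain it, and Sonic hedgehog from the epithelium drives its growth into the dermis. Basal cell carcinomas are known to express genes of this embryonic programme.

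Total counts were 27336935 to 256569828 per library. The sample identifiers in the labels fall into 3 ranges, and no label says that these were batches. Range A holds control replicates 1 to 3 and 5 of the 6-day libraries, range B holds control replicate 4 and 6-day replicates 2, 5 and 7, and range C holds the 3 libraries at 14 days, so time on drug at 14 days and range C cannot be told apart. Ptch1 and p53 are floxed in every group, so their transcripts check no group label. Ptch1, itself a Hedgehog target, averaged 87.1 CPM at 14 days, 246 CPM at 6 days and 1069 CPM in controls. It was called lower at 14 days (12.3-fold, adjusted p = 0.0454, edgeR), a call kept in 4 of the 15 fits that left out 1 library and lost, at 7.67-fold, without control replicate 4. Gli1, the transcription factor used as a readout of the pathway, was not called. It averaged 108 CPM at 14 days, 431 CPM at 6 days and 738 CPM in controls, with every 14-day library below every control (log2 fold change -2.78, adjusted p = 0.0848) and 6-day libraries that overlapped them (-0.77, adjusted p = 0.747). Of 7 keratinocyte markers, Cdh1 and Itga6 were called higher at 14 days than in controls, and the summed level was 15347 to 32192 CPM at 14 days, 15353 to 23017 CPM at 6 days and 10785 to 18893 CPM in controls. The 7 myeloid markers summed to 22.7 to 34.4 CPM at 14 days, 1.22 to 9.36 CPM at 6 days and 4.04 to 14.3 CPM in controls, and 2 of them, Adgre1 and C1qb, were called higher at 14 days than in controls. Of 6 markers of differentiating epidermis only Krt10 was called, higher at 14 days, a call kept in 4 of 15 such fits and lost without 14-day replicate 1 (2.50-fold). Their summed level was 297 to 5966 CPM at 14 days, 320 to 1175 CPM at 6 days and 254 to 724 CPM in controls. The marker lists of dermal, lymphoid, endothelial, melanocyte, Merkel, sebaceous and Schwann cells held 0 genes called by edgeR in each comparison. At most 2 genes of a list were under an unadjusted p of 0.05, and at most 2 were called by DESeq2 or limma-voom. Only 1 of 5 lymphoid, 2 of 5 endothelial, 3 of 5 Merkel and 7 of 8 dermal genes passed the filter on low counts. The others of these lists were not tested, so they could not be called. The part of these cells in the changes below was not tested.

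RefSeq promoter entries (GRCm38.p6) were at hand for Sox4, Msx1, Msx2, Pthlh and Foxi3. The 250 bases before the start of Sox4, Msx1 and Msx2 are shown because these are the genes with an entry whose 3 libraries at 14 days all lay below every control. They are the minus strand of chr13:28953700-28953949 for Sox4, chr5:37824586-37824835 for Msx1 and chr13:53472781-53473030 for Msx2, written 5′ to 3′. Capitals mark the CCAAT box, a short promoter element, read as CCAAT or, on the other strand, as ATTGG. No matches overlap.
Sox4: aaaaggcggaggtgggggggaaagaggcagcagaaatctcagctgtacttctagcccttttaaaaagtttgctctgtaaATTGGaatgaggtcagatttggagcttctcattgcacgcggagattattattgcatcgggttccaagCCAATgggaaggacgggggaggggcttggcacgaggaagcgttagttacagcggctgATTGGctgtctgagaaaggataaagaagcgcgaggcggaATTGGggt
Msx1: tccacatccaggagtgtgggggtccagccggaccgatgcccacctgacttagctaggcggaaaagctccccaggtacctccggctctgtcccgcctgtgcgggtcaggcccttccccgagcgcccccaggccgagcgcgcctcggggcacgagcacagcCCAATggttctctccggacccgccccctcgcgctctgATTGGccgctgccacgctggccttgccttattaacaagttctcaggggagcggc
Msx2: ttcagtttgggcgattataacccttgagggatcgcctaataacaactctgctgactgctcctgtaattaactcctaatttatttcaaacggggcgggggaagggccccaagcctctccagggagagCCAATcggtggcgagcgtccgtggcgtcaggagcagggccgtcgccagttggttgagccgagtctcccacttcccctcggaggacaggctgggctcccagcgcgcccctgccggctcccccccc
Sox4 held 4 matches, 8 to 171 bases before the start, Msx1 held 2 and Msx2 held 1, and the windows of Pthlh and Foxi3 held no match. Among all 32851 promoters, 37.4% held at least 1 match within 250 bases before to 50 bases after the start, so a match is common. The GLI motif GACCACCCA was in none of the 5 windows, against 0.253% of all promoters, and the LEF/TCF motif CTTTGAT was also in none, against 3.73%, counting both strands. The 300-base window of Sox4 was 52% G or C, near the median of 52.7% over all promoters, that of Msx1 was 70% and that of Msx2 was 61%.

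Per length, the 9 genes spanned a wide range of levels in each group, here given as the median RPKM that the authors adjusted by a size factor. In controls Sostdc1 stood highest at 139 RPKM, followed by Sox4 at 96.8, Cdh3 at 60.7, Pthlh at 41.5, Foxi3 at 21.8, Msx2 at 9.14, Foxe1 at 6.96 and Msx1 at 0.842 RPKM. Shh had a median of 0. Each of the first 4 genes was above the next one in 3 of 4 controls, so neighbours at the top of this order overlapped, while each of Foxi3, Msx2, Foxe1 and Msx1 was above the next gene in 4 of 4. At 14 days the order was Sostdc1 at 256, Cdh3 at 69.4, Sox4 at 23.7, Pthlh at 22.5, Foxi3 at 11.9, Msx2 at 4.67, Msx1 at 0.432, Foxe1 at 0.0975 and Shh at 0.0198 RPKM. Sox4 thus stood below Cdh3, and level with Pthlh, which it exceeded in 1 of 3 libraries, and Foxe1 stood below Msx1 in 2 of 3. At 6 days the medians for Sostdc1, Cdh3 and Sox4 were 104, 76.8 and 49.0 RPKM, and those for Foxe1 and Msx1 were 0.390 and 0.379 RPKM. Foxe1 was above Msx1 in 2 of 8 libraries there, so these neighbours in the order did not separate.

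**Figure D1:**
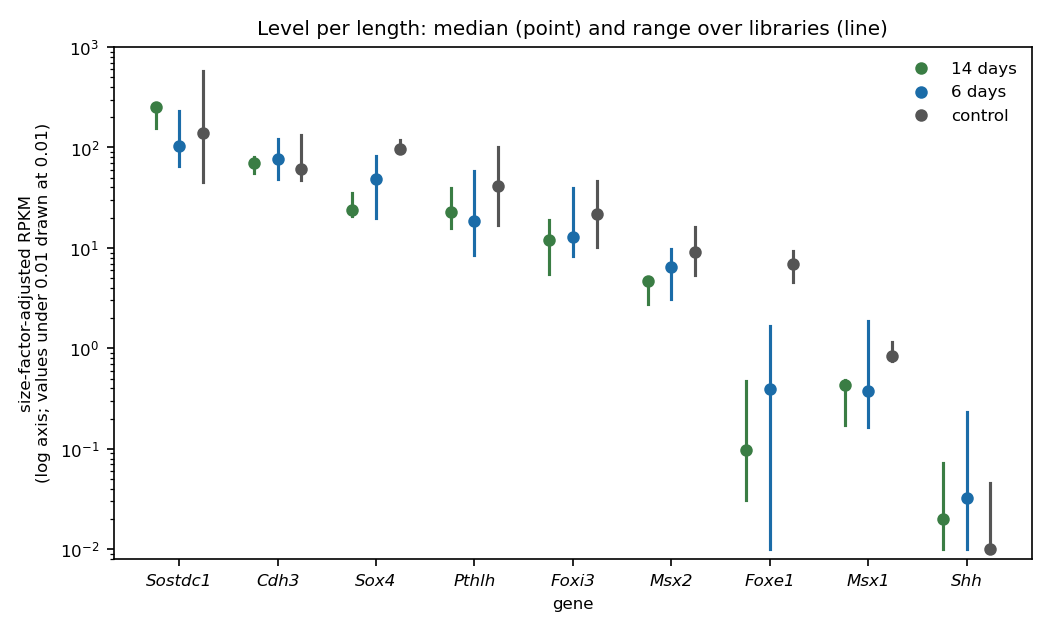
Level per length of the 9 genes at 14 days, at 6 days and in controls, in size-factor-adjusted RPKM on a log axis, with the median as a point and the lowest to highest library as a line. Foxe1 in controls (median 6.96 RPKM) stands apart from both vismodegib groups, and Sox4 at 14 days (23.7 RPKM) lies below its controls (96.8 RPKM).

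The transcription factor genes Foxe1 and Sox4 were the members that fell at 14 days of vismodegib. Foxe1 (chr4:46343644-46345774, plus strand, 1 exon) encodes a forkhead factor that lies downstream of Sonic hedgehog in mouse hair follicles. It had 0.0410, 0.132 and 0.640 CPM in 14-day replicates 1 to 3. At 6 days it ranged from 0 to 2.22 CPM with a median of 0.528 CPM. Controls had 12.03, 7.28, 6.00 and 11.03 CPM. Every library at 14 days and every library at 6 days was below every control, and the 2 times on drug overlapped. Against controls, Foxe1 fell 33.5-fold at 14 days (log2 fold change -5.07, SE 1.34, adjusted p = 0.0360, edgeR). At 6 days its log2 fold change was -3.48 (SE 0.84), and its adjusted p of 0.0589 missed the threshold of 0.05. Within ranges A and B alone the 6-day values were -3.57 and -3.49, and with range B as a covariate Foxe1 was called (-3.55, adjusted p = 0.0247). The 14-day call was lost without 14-day replicate 1 or 2 or without control replicate 2 or 3 (adjusted p between 0.0579 and 0.140), and without 14-day replicate 3 the log2 fold change was -6.69 and still called. In bulk RNA, fewer cells of a type and less RNA per cell cannot be told apart.

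Sox4 (chr13:28948919-28953699, minus strand, 1 exon), encodes a SoxC transcription factor of progenitor cells in many tissues. It had 84.2, 74.7 and 125 CPM in 14-day replicates 1 to 3. At 6 days it ranged from 70.7 to 297 CPM, with a median of 175 CPM. Controls had 340, 417, 333 and 313 CPM. Every library on drug was below every control at both times. The means were 94.6 ± 26.8 CPM at 14 days, 177 ± 86.8 CPM at 6 days and 351 ± 45.8 CPM in controls (SD, n = 3, 8 and 4). Sox4 fell 3.71-fold at 14 days (log2 fold change -1.89, SE 0.45, adjusted p = 0.0227, edgeR), with -1.96 when range B was left out. The 6-day value was -0.99 (SE 0.33, adjusted p = 0.184). It was -0.67 within range A (adjusted p = 0.128) and -1.84 within range B (adjusted p = 0.0310), where 1 control is assumed to vary like the other libraries, and -1.03 with range B as a covariate (adjusted p = 0.0176). The difference between these ranges was not tested. Sox4 at 14 days against 6 days had a log2 fold change of -0.90 (adjusted p = 0.191), and passed when range B was left out (-1.26, adjusted p = 0.0163). That fit kept only the 6-day libraries of range A, which averaged 230 CPM. The 6-day libraries of range B averaged 87.4 CPM, against 94.6 CPM at 14 days. The 14-day call against controls was lost without control replicate 2 (adjusted p = 0.0510) or without any 1 of the 14-day replicates (0.0527 to 0.109). Sox4 and Foxe1 are each overlapped by a gene of their own on the opposite strand in the GENCODE annotation, and with the strand of counting not given in the sources used here those reads cannot be told apart.

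**Figure D2:**
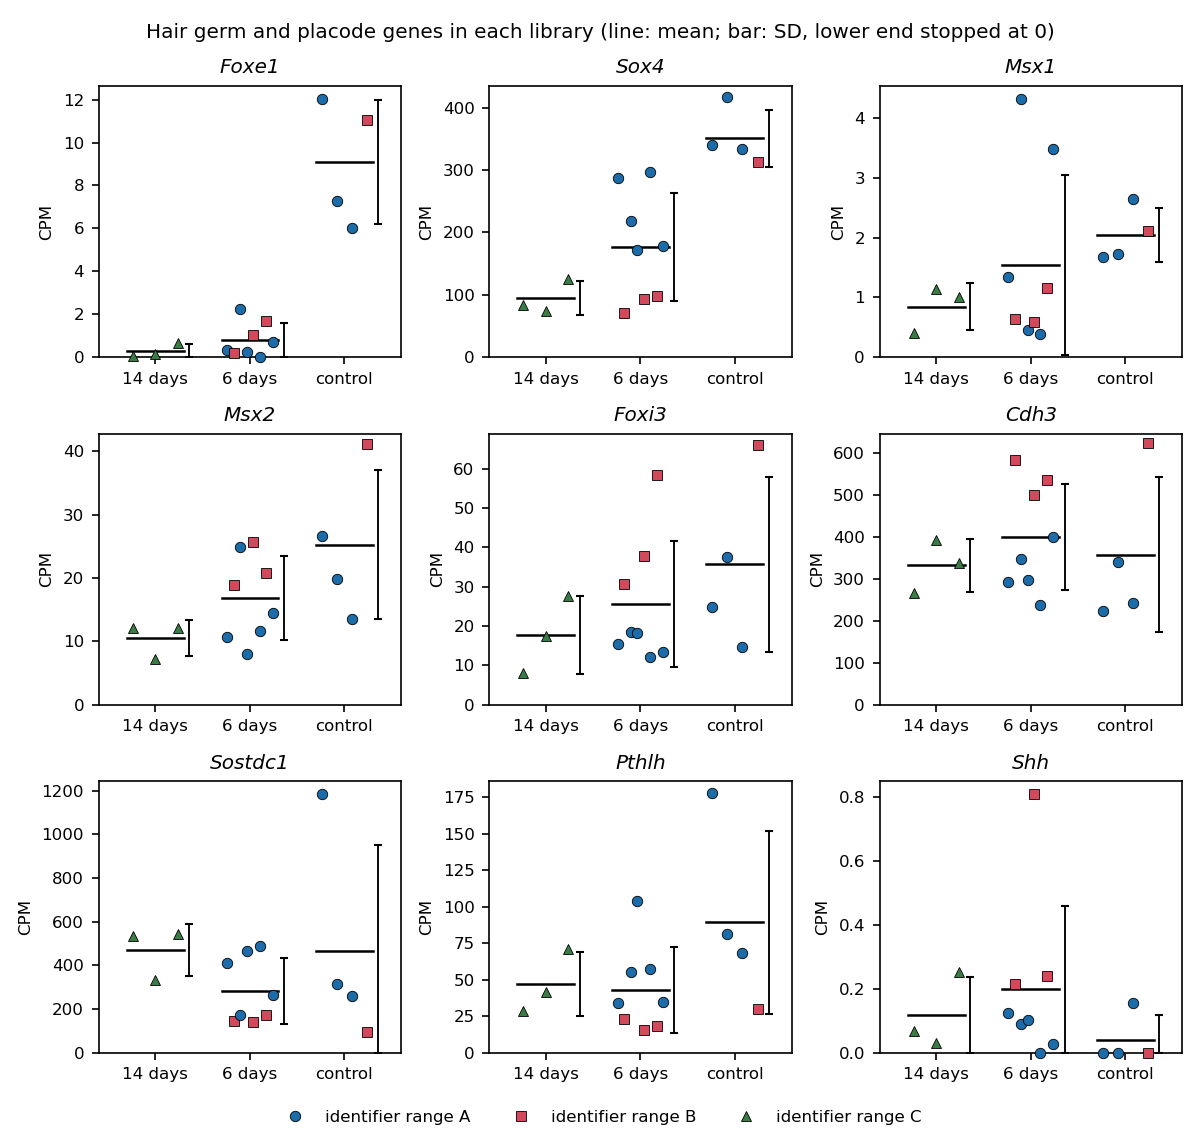
CPM of each gene in every library (points, shaped and coloured by identifier range), with the mean as a line and the SD as a bar, at 14 days (n = 3), at 6 days (n = 8) and in controls (n = 4). The 4 controls lie above every library on drug for Foxe1 (6.00 to 12.03 CPM) and Sox4 (313 to 417 CPM), while Cdh3, Sostdc1 and Pthlh overlap between groups.

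The homeobox genes Msx1 and Msx2 encode transcription factors that respond to BMP signals in the placode and in the hair matrix. Msx2 (chr13:53466881-53472780) had 12.2, 7.24 and 12.1 CPM at 14 days. Its 6-day libraries ranged from 8.02 to 25.7 CPM, with a median of 16.7 CPM, and the controls had 26.7, 19.8, 13.6 and 41.1 CPM. Each 14-day library was below each control, whereas 6-day libraries overlapped both groups. The log2 fold change of Msx2 was -1.27 at 14 days (SE 0.44, adjusted p = 0.100) and -0.58 at 6 days (SE 0.34, adjusted p = 0.538), neither of which passed. Msx1 (chr5:37820491-37824585) was near the lower end of what was tested. It had 0.397, 1.14 and 1.001 CPM at 14 days, 0.385 to 4.33 CPM at 6 days with a median of 0.891 CPM, and 1.68, 1.72, 2.66 and 2.11 CPM in controls. The 14-day libraries were again all below the controls, and the 6-day libraries reached from below the lowest to above the highest control. Neither the value at 14 days (-1.27, SE 0.82, adjusted p = 0.376) nor that at 6 days (-0.41, SE 0.63, adjusted p = 0.914) passed, and the 6-day value split into -0.02 in range A and -1.42 in range B.

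Foxi3 (chr6:70956606-70961066) encodes a forkhead factor of the placode that in mice responds to ectodysplasin. It had 7.96, 17.4 and 27.8 CPM at 14 days, 12.2 to 58.3 CPM at 6 days with a median of 18.5 CPM, and 24.8, 37.5, 14.6 and 66.0 CPM in controls. The groups overlapped, and the highest library at 6 days and the highest control were both of range B. Its log2 fold change was -1.01 at 14 days (SE 0.61, adjusted p = 0.340) and -0.48 at 6 days (SE 0.47, adjusted p = 0.807). With range B as a covariate, which sets range C equal to range A, the 14-day value was -0.52 and the 6-day value -0.69, and neither passed.

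Of the secreted signals, the ligand gene Shh (chr5:28456840-28467101), which encodes Sonic hedgehog, was at the edge of detection. It had 10, 4 and 30 counts at 14 days. At 6 days the counts were 0 to 202, and 6-day replicate 5 held 202 of 289. The 3 range B libraries at 6 days had 0.214 to 0.809 CPM and the 5 of range A had 0 to 0.122 CPM, while the control of range B was at 0. Controls had 0, 0, 5 and 0 counts. Shh never exceeded 0.809 CPM, where 3 counts in a library, the limit that a count of 0 allows, equal 0.0120 to 0.105 CPM, so levels at or under that were not distinguishable from 0, for counting error alone. It did not pass the filter on low counts. Mean CPM was 0.117 at 14 days and 0.200 at 6 days, against 0.0391 in controls, with two-sided exact permutation p = 0.343 at 14 days and p = 0.158 at 6 days (0.514 and 0.473 adjusted over 3 comparisons). Genes on the opposite strand overlap Shh as well.

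Pthlh (chr6:147252109-147264013), which encodes the parathyroid hormone-related peptide that follicle keratinocytes secrete, had 28.8, 41.3 and 71.3 CPM at 14 days. It ranged from 15.6 to 104 CPM at 6 days, with a median of 34.2 CPM, and controls had 178, 81.0, 68.1 and 29.9 CPM. The lowest control, replicate 4, lay among the libraries on drug. The log2 fold change was -0.92 at 14 days (SE 0.65, adjusted p = 0.427) and -1.06 at 6 days (SE 0.50, adjusted p = 0.393). Pth1r, the gene of its receptor, reached at most 0.175 CPM in any library, and neither Pth1r, Pth2r nor Pth passed the filter on low counts.

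Sostdc1 (chr12:36314169-36318452) encodes a secreted antagonist of BMP and Wnt signals that surrounds and limits the placode. It had 535, 334 and 542 CPM at 14 days, 139 to 489 CPM at 6 days with a median of 219 CPM, and 1184, 315, 261 and 93.0 CPM in controls. The highest and the lowest of all libraries were both controls, so the spread of the controls covered both times on drug. The log2 fold change was 0.02 at 14 days (SE 0.67, adjusted p = 0.989) and -0.72 at 6 days (SE 0.52, adjusted p = 0.686), and the 6-day value split into -0.72 in range A and 0.69 in range B. Cdh3 (chr8:106510852-106556911) encodes P-cadherin, the adhesion molecule by which placodes and hair germs are recognised. It had 266, 392 and 337 CPM at 14 days, 238 to 583 CPM at 6 days with a median of 374 CPM, and 224, 340, 243 and 623 CPM in controls. All groups overlapped, with log2 fold changes of -0.11 at 14 days (SE 0.37, adjusted p = 0.897) and 0.16 at 6 days (SE 0.29, adjusted p = 0.930). Both standard errors of Cdh3 exceed the values.

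As a list, 8 of the 9 genes were tested. The list was chosen with earlier results of these data known, so the shares below are a description. At 14 days 2 of 8 were called, both lower, where 6.60% of all 18751 genes tested were called and 3.35% were called lower. For 4 of 8, Foxe1, Sox4, Msx1 and Msx2, every 14-day library was below every control, which held for 11.7% of all genes. The median log2 fold change of the 8 genes was -1.14 at 14 days, against -0.02 over all genes. At that time 7 of 8 were negative, against 51.0% of all genes. An unadjusted p under 0.05 was found for 3 of 8, against 23.3% of all genes. At 6 days edgeR called 0 of 8, where it called 1.26% of all genes. Of the 8, 3 had an unadjusted p under 0.05, against 12.7% of all genes, and DESeq2 and limma-voom each called 1, Foxe1. For 2 of 8, Foxe1 and Sox4, the 6-day libraries were all below the controls, which held for 1.47% of all genes. The median at 6 days was -0.65, against 0.03 over all genes. Between 14 days and 6 days edgeR called 0 of 8, where it called 3.89% of all genes, with 1 unadjusted p under 0.05, that of Sox4, against 23.1% of all genes. Here limma-voom called 1, Sox4, and DESeq2 called 0. The log2 fold changes at 14 days against 6 days were -1.59 for Foxe1, -0.90 for Sox4, -0.86 for Msx1, -0.68 for Msx2, -0.53 for Foxi3, -0.27 for Cdh3, 0.14 for Pthlh and 0.74 for Sostdc1. The 3 comparisons share libraries and are not independent of each other.

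**Figure D3:**
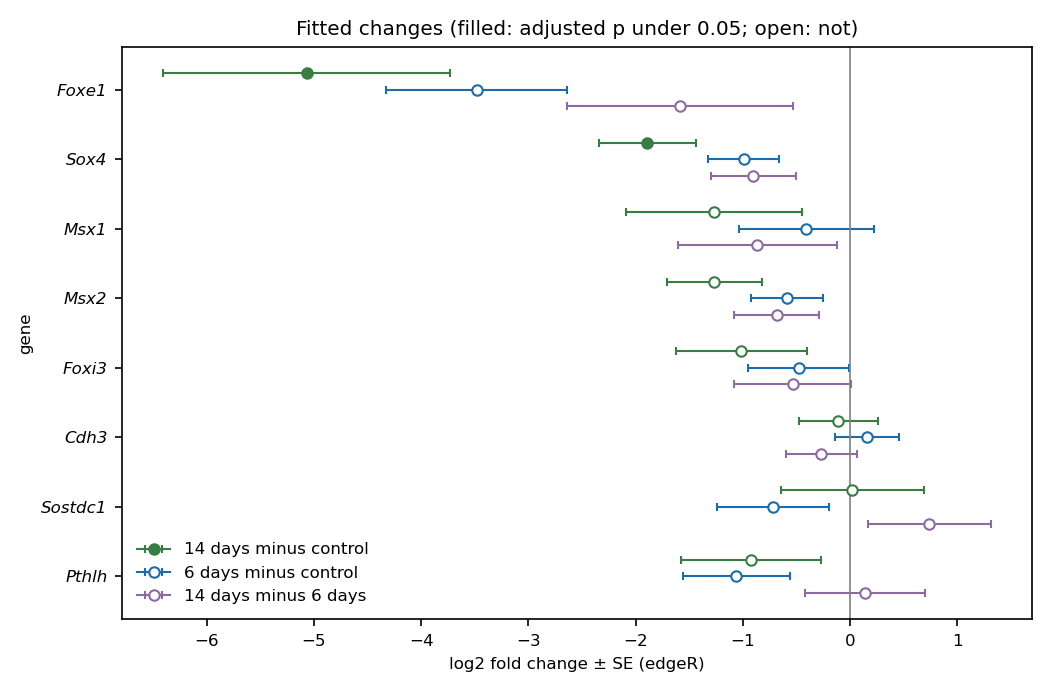
Log2 fold change with its standard error from edgeR for the 8 genes tested, at 14 days minus control, 6 days minus control and 14 days minus 6 days. Filled points passed an adjusted p of 0.05, which holds for Foxe1 (-5.07) and Sox4 (-1.89) at 14 days against control.

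The identifier range moved with most of these genes. In a fit of the 12 control and 6-day libraries with the group as the other term, chosen after the values were seen, 6 of 8 were called between ranges B and A, where 43.5% of the 17843 genes tested were called. Foxi3 (log2 difference 1.42, SE 0.23, adjusted p = 0.000282), Cdh3 (0.92, SE 0.16, adjusted p = 0.000412) and Msx2 (0.77, SE 0.27, adjusted p = 0.0369) were higher in range B. Pthlh (-1.66, SE 0.35, adjusted p = 0.00212), Sostdc1 (-1.58, SE 0.46, adjusted p = 0.0139) and Sox4 (-1.01, SE 0.23, adjusted p = 0.00363) were lower in range B. Foxe1 (0.44, adjusted p = 0.674) and Msx1 (-0.87, adjusted p = 0.293) were not called. At 6 days, Cdh3 was at 500 to 583 CPM in range B and 238 to 400 CPM in range A, with no overlap, and Sox4 was at 70.7 to 97.9 CPM in range B and 171 to 297 CPM in range A. In controls, Cdh3 was at 623 CPM in range B (1 library) and 224 to 340 CPM in range A. Sox4 there was at 313 CPM in range B and 333 to 417 CPM in range A, a smaller gap than at 6 days. The fit uses 1 range term for both groups. Range B libraries are also deeper, with 93183564 to 256569828 counts against 27336935 to 38657170 in range A, and Gli1 averaged 844 CPM in range B and 184 CPM in range A at 6 days. What sets the ranges apart was not tested.

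**Figure D4:**
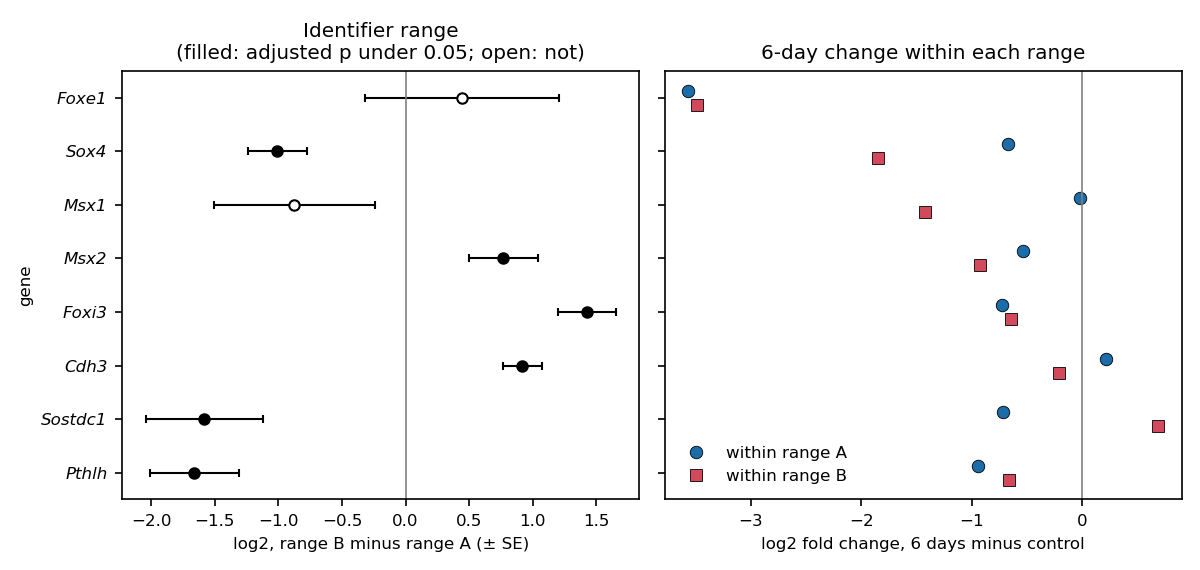
Left, log2 difference between ranges B and A with its standard error from a fit of 12 libraries, filled where the adjusted p was under 0.05. Right, log2 fold change at 6 days minus control within range A (circles) and within range B (squares). Foxe1 gave -3.57 and -3.49 in the 2 ranges, and Sostdc1 gave -0.72 and 0.69.

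Other genes of the same pathways were described from fixed lists, with calls by edgeR. Among the Hedgehog genes, Ptch1 and Hhip, which restrain the pathway and are induced by it, were called lower at 14 days and Scube2, which helps to release the ligand, was called higher. Hhip had 91.0 ± 65.4 CPM at 14 days and 633 ± 492 CPM in controls (6.95-fold, adjusted p = 0.0394). At 6 days Hhip was called lower (5.54-fold, adjusted p = 0.0362) and Scube2 higher (5.13-fold, adjusted p = 0.0381). The sister ligand genes Dhh and Ihh reached at most 4.87 and 0.638 CPM in any library. Of 5 ectodysplasin genes, Edar, the receptor gene of the placode, was called lower at 14 days (17.5-fold, 0.893 ± 0.0862 CPM against 15.7 ± 8.96 CPM in controls, adjusted p = 0.0127) and at 6 days (9.72-fold, adjusted p = 0.0137). Tnfrsf19, a related receptor gene, was called higher at 14 days (9.96-fold, adjusted p = 0.0464). Of 19 BMP and Wnt genes tested, edgeR called 0 against controls at either time, with unadjusted p under 0.05 for 7 at 6 days and 5 at 14 days, where 12.7% and 23.3% of all genes had one, while DESeq2 called 0 and 3 and limma-voom 1 and 4. Bmp4 was called higher at 14 days than at 6 days (16.7-fold, 13.8 ± 16.6 CPM against 0.828 ± 0.443 CPM, adjusted p = 0.0293), and without 14-day replicate 1 the fold was 5.48 and the call was lost.

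Among relatives of the members, Sox13 was called lower at 14 days, 1 of 7 other Sox genes tested (104 ± 73.9 CPM against 786 ± 338 CPM in controls, 7.57-fold, adjusted p = 0.0296), and Sox11, of the same SoxC group as Sox4, reached at most 0.336 CPM. Sox12, the third of that group, had 18.9 CPM on average at 14 days and 37.8 CPM in controls (adjusted p = 0.290). Of 6 other forkhead genes tested edgeR called 0 in any comparison, with 2 at an unadjusted p under 0.05 at 6 days and 1 at 14 days, and DESeq2 and limma-voom called 1 each at either time. Against controls 3 of the 6 were positive and 3 negative at each time. Foxd2, though not called by edgeR, had every library on drug below every control, as Foxe1 did. It had 0.335 to 2.36 CPM at 14 days, 0 to 3.59 CPM at 6 days and 7.99 to 9.78 CPM in controls. Of 8 classical cadherins and catenins, Cdh1, which encodes E-cadherin, was called higher at 14 days (1698 ± 173 CPM against 751 ± 240 CPM in controls, 2.26-fold, adjusted p = 0.0241), as was Cdh4 (9.44-fold, adjusted p = 0.0458), whereas Cdh3 was not. Of 12 regulators and keratin genes listed for the hair matrix and shaft, Hoxc13 (8.34-fold, adjusted p = 0.0233) and Dlx1 (17.1-fold, adjusted p = 0.0478) were called lower and Gata3 higher (2.03-fold, adjusted p = 0.0436) at 14 days. Of 10 other placode and hair germ genes, Nfatc1, also a bulge marker, was called higher at 14 days (1167 ± 398 CPM against 357 ± 141 CPM in controls, 3.26-fold, adjusted p = 0.0246). These 10 genes had a median log2 fold change of -0.09 at 14 days against controls, with 4 positive and 6 negative, unlike the members. Of 8 bulge markers, Krt15 was called higher at 6 days (3.67-fold, adjusted p = 0.0166) and at 14 days (3.06-fold, adjusted p = 0.0223). At 14 days 4 of the 8 bulge markers had positive and 4 had negative log2 fold changes, with values of -1.59 for Lhx2 (adjusted p = 0.0717) and -1.40 for Tcf7l1 (adjusted p = 0.181). Of 15 fits that left out 1 library, the calls at 14 days were kept in 12 for Edar and Hoxc13, in 11 for Sox13, Nfatc1 and Krt15, in 13 for Scube2, in 10 for Cdh1, in 8 for Hhip and in 3 to 5 for Tnfrsf19, Dlx1, Cdh4 and Gata3. The calls at 6 days were kept in 14 for Edar, in 13 for Krt15, in 9 for Hhip and in 7 for Scube2. Without 14-day replicate 1 the fold at 14 days was 4.15 for Tnfrsf19 and 4.56 for Cdh4, and without 14-day replicate 3 it was 11.8 for Sox13 and 11.04 for Hhip. Without control replicate 2 Hhip was lower by 4.38-fold at 14 days and by 3.55-fold at 6 days, with neither called, and without 6-day replicate 7 Edar was 15.1-fold lower at 6 days. Without control replicate 1 Tnfrsf19 was 20.5-fold higher at 14 days, and without control replicate 4 Cdh4 was 15.9-fold higher.

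For each member tested, the genes nearest in pattern were found by the mean absolute difference of log2 CPM, centred on the gene's own mean, over the 15 libraries, among 11092 genes of at least 5 CPM. Foxe1, whose own log2 CPM deviated from its mean by 2.38 on average, lay closest to Prss35 (0.61), Lingo1 (1.07) and Cyp27b1 (1.18). All 3 of these were also called lower at 14 days. They were chosen for nearness to Foxe1 over the same libraries, so these calls are no separate result. Sox4, with a mean deviation of 0.78, lay closest to Znrf2 (0.40), Gdpd1 (0.41) and Pigbos1 (0.43). Foxi3 lay closest to Kif7 (0.22), the gene of a kinesin of the Hedgehog pathway, and then to Tmcc2 and Fads1. Msx2 lay closest to Fam110a (0.21), Cdh3 to Map2k7 (0.12), Sostdc1 to Ociad2 (0.25), Pthlh to the follicle keratin gene Krt17 (0.40) and Msx1 to Scnn1g (0.50). Among the members themselves the closest pairs were Cdh3 with Msx2 (0.49), Cdh3 with Foxi3 (0.50), Msx2 with Foxi3 (0.54) and Sostdc1 with Pthlh (0.58). The 15 libraries share depth and identifier range within these distances, which are a description only.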

How the data were processed

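The deposited values are, per the file headers, counts of uniquely aligned reads by gene, and RPKM made by the authors from those counts with gene length and size factors of the libraries. GSNAP and the genome GRCm38 are named in the submitters' processing notes. Their versions, the annotation, the strand setting and the kit were not given in the sources used here. RPKM was used only to compare genes by level. Of 36528 Entrez identifiers 31049 matched the RefSeq table of GRCm38.p6, and the rest, with 1.24 to 1.59% of the counts, kept their identifier. Groups were taken from the treatment label. Replicate numbers follow accession order and pair nothing. No 2 libraries agreed within sampling noise (chi-square of at least 52.8 per degree of freedom in each of 105 pairs).

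The test of the counts was the quasi-likelihood F test of edgeR 4.0.16 (R 4.3.3, TMM, filterByExpr) in 1 fit over 15 libraries with no covariate. This left 18751 genes, adjusted by Benjamini-Hochberg and called under 0.05, with a common biological coefficient of variation of 0.579. Levels are TMM-scaled CPM, and logs in the search for near genes used a prior count of 0.5. Alternatives were RLE factors, 2 other filters, DESeq2 1.42.0, limma-voom 3.58.1 with sample weights, fits of the 2 groups compared, the identifier ranges and each library left out. The fit was also run on counts simulated with the same spread for all genes and no effect of identifier range. The outcome of that run is not given here, and it is no support for the calls above. Total counts of 27336935 to 256569828 limit the precision, and 3 counts are 0.0120 to 0.105 CPM.

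The members and the 22 gene lists were chosen with earlier results of these data known. Named genes were the members, 8 checks of model and cells, at most 4 called genes per list and comparison, and the 3 genes nearest to each member. Some genes that this rule names are not reported here. The test between ranges, the permutation test of Shh, the shares of genes with no overlap between groups and the CCAAT box were added after values or sequences had been seen. Tables and figures were made with matplotlib 3.10.9, scipy 1.17.1, pandas 2.3.3 and numpy 2.4.6 under Python 3.11.15.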

Additional observations from a re-analysis of the deposited data

Results flagged for a closer look

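Among 18 groups of 4 to 8 libraries examined, 3 held a library far from the rest of its group, where chance gives about 1 in 20. Shh stood at 0.809 CPM in 6-day replicate 5, the deepest library, with the other 7 libraries at 0 to 0.239 CPM. Shh also stood at 0.156 CPM (5 counts) in control replicate 3, with the other 3 controls at 0. With those at 0, any count would have been flagged, so this flag is not set against chance. Pthlh stood at 104 CPM in 6-day replicate 4, with the other 7 libraries at 15.6 to 57.5 CPM. Pthlh was not called in any comparison, and Shh did not pass the filter on low counts, so the main fit did not test it.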

How the results depend on the processing

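No alternative turned a called log2 fold change round. The 14-day calls of Foxe1 and Sox4 were each kept in 8 of 8 other settings and in 11 of 15 fits without 1 library, and the number of members called ran from 0 to 2 over those fits, against 2 with all libraries. At 6 days the number called, 0 in the fit of all libraries, was 1 with DESeq2 (Foxe1), 1 with limma-voom (Foxe1), 2 with identifier range B as a covariate (Sox4 and Foxe1), 1 within range B (Sox4) and 0 to 1 without 1 library. For 14 days against 6 days, 0 in the fit of all libraries, it was 1 with limma-voom, 1 with range B as a covariate and 1 with range B left out, in each case Sox4. No fit can adjust for range C, which is the 14-day group, and the last 2 of these fits treat it as equal to range A. DESeq2 also called Msx2 at 14 days (adjusted p = 0.0299). The cause of these differences was not tested. Over all genes, 236 were called at 6 days (197 to 866 over other settings, 69 to 308 without 1 library), 1238 at 14 days (374 to 4205, and 376 to 1438) and 730 between the times (460 to 4693, and 3 to 1138). No paired analysis was possible because the labels give no replicate numbers. With 3 libraries at 14 days, all of 1 identifier range, and counts of Shh under 60 in 14 of 15 libraries, small changes of the low members were not detectable.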

Other observations

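Control replicate 4, the only control of range B, was the highest or lowest control for 6 of the 8 members tested. Among 4 controls such a place is common, and the share over all genes was not counted. It had the highest Cdh3 (623 CPM), Foxi3 (66.0 CPM) and Msx2 (41.1 CPM) of the 4 controls and the lowest Sostdc1 (93.0 CPM), Pthlh (29.9 CPM) and Sox4 (313 CPM). Control replicate 1 had the highest Sostdc1 (1184 CPM), Pthlh (178 CPM) and Foxe1 (12.03 CPM). It also had the lowest Cdh3 (224 CPM) and Msx1 (1.68 CPM). For Foxe1, by contrast, replicate 4 (11.03 CPM) lay inside the spread of the other 3 controls (6.00 to 12.03 CPM).

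Of 6 proliferation genes edgeR called 0 against controls at either time, with 2 unadjusted p under 0.05 at 6 days and 0 at 14 days, while DESeq2 called 1 and 0 and limma-voom 2 and 0. Ccnb1 was called higher at 14 days than at 6 days (18.4 ± 16.0 CPM against 2.25 ± 1.24 CPM, 8.14-fold, adjusted p = 0.0167), as was Mcm2 (2.98-fold, adjusted p = 0.0497). Of 15 fits that left out 1 library, the call of Ccnb1 was kept in 13, and lost without 14-day replicate 1 (4.19-fold) or 3. That of Mcm2 was kept in 3.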
